A study of Saccharomyces bayanus x Saccharomyces cerevisiae with 8 samples.

Results

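The genes of sphingolipid synthesis were followed in OZY27, a hybrid yeast with 1 genome of Saccharomyces bayanus and 1 of Saccharomyces cerevisiae, so that both orthologs of a gene were read from the same cells. A list of 10 genes was set by systematic name, and 9 of them had a row among the 4238 ortholog pairs of the deposited table. These are LCB1, LCB2, TSC10, SUR2, LAG1, LAC1, CSG2, SUR1 and IPT1, while AUR1 (YKL004W) was not analysed here. The S. bayanus parent, derived from CBS 4001, carried ade2, his3 and lys2 mutations. The S. cerevisiae parent was isogenic to the laboratory strain W303 and carried his3, leu2, lys2, trp1 and ura3 mutations, so his3 and lys2 came from both sides. For both biological replicates, cultures were grown at 25 °C in the rich glucose medium YPD and collected in log phase. Each culture gave 1 library, of which culture 1 was sequenced in 5 lanes and culture 2 in 3 lanes, at the sites UCB and UCR. All samples are of this 1 strain under this 1 condition, and the name of each gene is that of its S. cerevisiae ortholog.

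Sphingolipids are membrane lipids built on a long-chain base, and in yeast they are concentrated in the plasma membrane. Serine palmitoyltransferase joins serine to palmitoyl-CoA, the product is reduced and hydroxylated to phytosphingosine, and ceramide synthase attaches a very-long-chain fatty acid. In the Golgi, ceramide receives a phosphoinositol group, then mannose, and then a further phosphoinositol group, which gives the main complex sphingolipids of yeast. LCB1 and LCB2 encode the core subunits of serine palmitoyltransferase, TSC10 the reductase and SUR2 the hydroxylase. LAG1 and LAC1 are paralogs that encode ceramide synthase, and AUR1 encodes the synthase of inositol phosphorylceramide. SUR1 encodes a mannosyltransferase subunit that works with CSG2, and IPT1 encodes the enzyme of the last step.

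The lanes held between 2350222 and 3159446 reads assigned to an allele, 14707025 in culture 1 and 8223099 in culture 2. The 9 genes had 3178 to 20348 reads each over both alleles and all lanes, and no allele of them had fewer than 403 reads in a culture. All 9 passed the minimum of 10 reads over both alleles in each culture, which 4197 genes of the table met. Lanes of a culture are repeat runs of 1 library, so counts were summed by culture and n = 2. Levels are given as RPKM, in which reads are divided by the mappable length of the ortholog and by the TMM-scaled read total of its genome. Ratios are those of the S. bayanus over the S. cerevisiae allele.

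Sphingolipid synthesis genes were expressed above the typical gene. All 9 had a level, the mean of both alleles and cultures, over the 92.1 RPKM of the median tested gene. They spanned 4.84-fold among themselves. Serine palmitoyltransferase led, with LCB1 at 616 ± 199 RPKM and LCB2 at 458 ± 54.1 RPKM (SD over cultures, n = 2 each). SUR2 followed at 295 ± 49.3, CSG2 at 294 ± 80.9 and TSC10 at 241 ± 52.4 RPKM. IPT1 had 192 ± 2.85, LAG1 155 ± 35.9, LAC1 145 ± 29.6 and SUR1 127 ± 24.6 RPKM, again as the mean of both alleles with its SD (n = 2 each). Neighbours in this order differed by less than the larger of their SDs, except LCB2 and SUR2, which lay well apart, and IPT1 and LAG1, which exceeded it narrowly. A difference of level that the genes share between the cultures enters these SDs. Within each culture the order was the same, except that CSG2 lay above SUR2 in culture 2, at 351 and 330 RPKM. The order was not tested. In percentiles of all tested genes, the levels ran from 58.6 for SUR1 to 90.9 for LCB1.

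**Figure D1:**
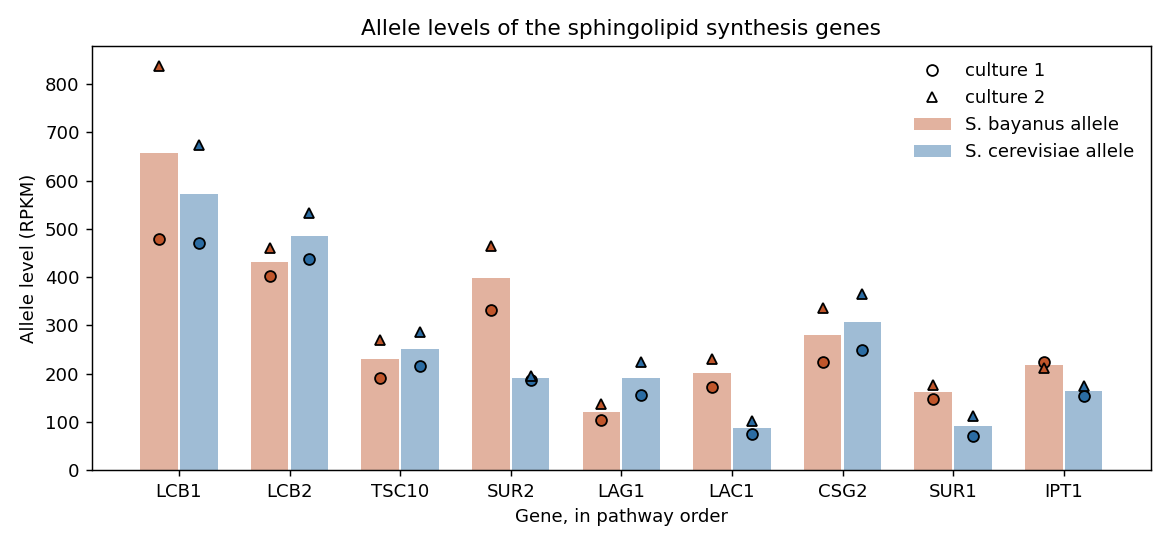
Level of each allele in RPKM for the 9 genes in pathway order. Bars are means of the 2 cultures, circles culture 1 and triangles culture 2; SUR2 and LAC1 have a tall S. bayanus bar beside a short S. cerevisiae bar, and LAG1 shows the opposite order.

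In the hybrid, unequal reads of the 2 orthologs give the allele difference of a gene. Alleles differed in 5 of the 9 genes (edgeR quasi-likelihood test with Benjamini-Hochberg adjustment over all tested genes, adjusted p under 0.05), against 53.5% of all tested genes. The S. bayanus allele was higher in 4 of them, SUR2, LAC1, SUR1 and IPT1, a direction that 26.6% of all genes took. LAG1 was the only one of the 9 called with a higher S. cerevisiae allele, a direction in which 26.9% of all genes were called. Of the genes that were not called, LCB2, TSC10 and CSG2 leaned toward S. cerevisiae and LCB1 toward S. bayanus. The share of genes that differed was therefore near the background. At 2-fold or more stood SUR2 and LAC1, 2 of 9 genes, against 13.2% of all genes in either direction and 6.55% toward S. bayanus. The median log2 ratio was 0.17 over the 9 genes and -0.00287 over all tested genes, and the median size of the log2 ratio was 0.41 and 0.37. In the authors' deposited table, the calls of all 9 genes had the same outcome and direction. Those calls come from the same cultures and are not independent. Over all 4238 genes, 1233 of them were toward S. bayanus and 841 toward S. cerevisiae.

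No allele difference passed the test at the first steps of the pathway. LCB1 (YMR296C, chromosome XIII), a subunit of serine palmitoyltransferase, had 5745 S. bayanus reads and 5407 S. cerevisiae reads in culture 1, and 5298 and 3898 in culture 2. Its alleles averaged 658 ± 254 RPKM for S. bayanus and 573 ± 144 RPKM for S. cerevisiae (SD, n = 2), a log2 ratio of 0.17 (standard error, SE, 0.10, edgeR adjusted p = 0.205). The means differ by less than either SD, but the SDs include a rise of both alleles from culture 1 to culture 2. Paired by culture, the log2 ratio was 0.02 in culture 1 and 0.31 in culture 2. LCB2 (YDR062W, chromosome IV), the catalytic subunit, had 4557 S. bayanus reads and 4678 S. cerevisiae reads in culture 1, and 2750 and 2865 in culture 2. Its alleles had 432 ± 41.2 RPKM for S. bayanus and 485 ± 67.0 RPKM for S. cerevisiae, a log2 ratio of -0.16 (SE 0.08, edgeR adjusted p = 0.143). As scaled, the S. bayanus allele was higher in 0 of 8 lanes. Before scaling, lanes 1, 6 and 7 had more S. bayanus than S. cerevisiae reads, over equal mappable lengths. TSC10 (YBR265W, chromosome II), which reduces the product of that enzyme, had 231 ± 55.8 RPKM for S. bayanus and 251 ± 49.0 RPKM for S. cerevisiae. Its log2 ratio was -0.13 (SE 0.09, edgeR adjusted p = 0.279), and the S. bayanus allele was higher in 2 of 8 lanes. With both alleles scaled by 1 library size, LCB1 stood at 0.28, LCB2 at -0.05 and TSC10 at -0.015 (edgeR, adjusted p of 0.104, 0.597 and 0.902).

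SUR2 (YDR297W, chromosome IV), the hydroxylase that turns dihydrosphingosine into phytosphingosine, had an S. bayanus allele 2.04-fold higher. It had 2427 S. bayanus reads and 1295 S. cerevisiae reads in culture 1, and 1785 and 679 in culture 2. The log2 ratio was 0.96, 0.75, 0.72, 0.80 and 0.98 in the lanes of culture 1 (lanes 1, 2, 5, 6 and 8), and 1.18, 1.29 and 1.27 in those of culture 2 (lanes 3, 4 and 7). All 8 lanes were on the S. bayanus side, and every lane of culture 2 lay above every lane of culture 1. The alleles averaged 399 ± 93.0 RPKM for S. bayanus and 192 ± 5.51 RPKM for S. cerevisiae (SD, n = 2), a log2 ratio of 1.03 (SE 0.13, edgeR adjusted p = 0.00279). The S. cerevisiae allele hardly varied between the cultures, at 188 RPKM in culture 1 and 196 RPKM in culture 2, and the S. bayanus allele had 333 and 464 RPKM.

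The ceramide synthase paralogs differed in opposite directions. LAC1 (YKL008C, chromosome XI) had the widest ratio of the 9 genes, with 1482 S. bayanus reads and 594 S. cerevisiae reads in culture 1, and 1041 and 403 in culture 2. Its log2 ratio was 1.20, 1.30, 1.27, 1.20 and 1.17 in the lanes of culture 1, and 1.40, 0.97 and 1.23 in those of culture 2. The cultures overlapped and no lane came near equality. The alleles averaged 202 ± 40.8 RPKM for S. bayanus and 88.1 ± 18.4 RPKM for S. cerevisiae (SD, n = 2), 2.30-fold at a log2 ratio of 1.20 (SE 0.09, edgeR adjusted p = 0.00079).

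LAG1 (YHL003C, chromosome VIII) had 805 S. bayanus reads and 1240 S. cerevisiae reads in culture 1, and 557 and 900 in culture 2. Its log2 ratio was -0.76, -0.67, -0.58, -0.45 and -0.35 in the lanes of culture 1, and -0.85, -0.59 and -0.72 in those of culture 2. All 8 lanes were on the S. cerevisiae side, and the cultures overlapped. The alleles averaged 120.3 ± 23.0 RPKM for S. bayanus and 191 ± 48.7 RPKM for S. cerevisiae (SD, n = 2), a log2 ratio of -0.65 (SE 0.09, edgeR adjusted p = 0.00393), or 1.57-fold toward S. cerevisiae. The orthologs of LAG1 differ in length, 1155 bases in S. bayanus and 1236 in S. cerevisiae, with 983 and 1068 mappable bases, and the ratio is per mappable base.

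The paralog with the higher level differed between the genomes. LAC1 made up 62.5% of the summed LAG1 and LAC1 level of the S. bayanus genome in culture 1 and 62.9% in culture 2. In the S. cerevisiae genome it made up 32.5% and 31.0%. The sums themselves were closer, at 277 RPKM for S. bayanus and 231 RPKM for S. cerevisiae in culture 1, and 368 and 326 RPKM in culture 2, ratios of 1.20 and 1.13. These sums are a description with no test. How reads shared by the paralogs were assigned is not given in the sources used here, so a part of the split between LAG1 and LAC1 is uncertain.

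**Figure D2:**
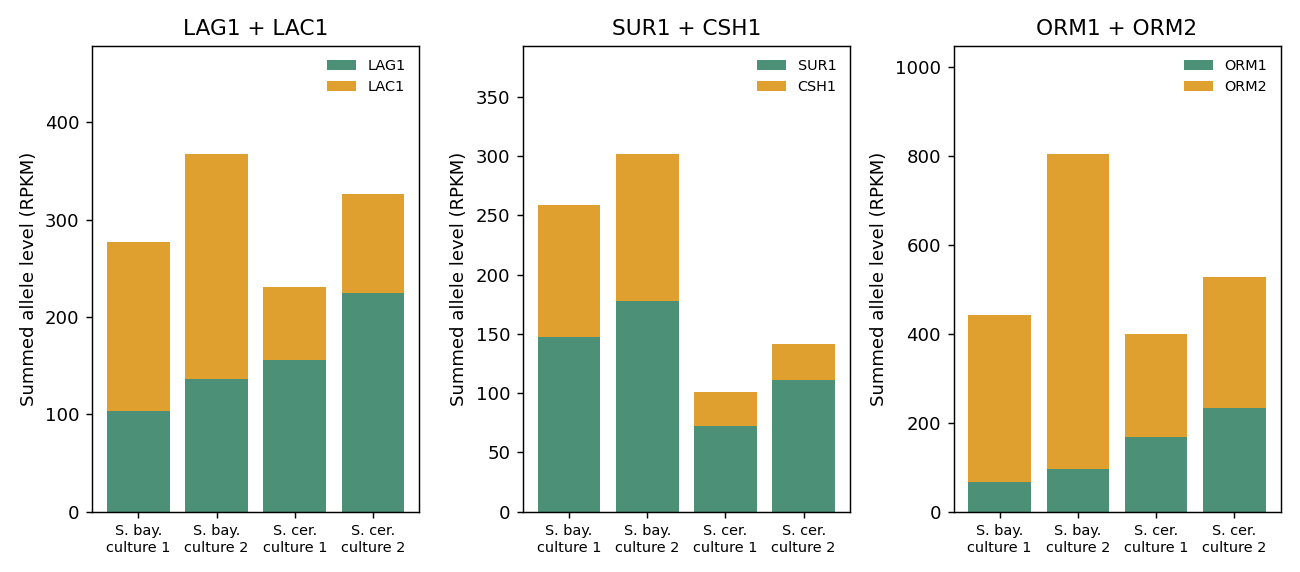
Summed level in RPKM of 3 pairs of paralogs, LAG1 and LAC1, SUR1 and CSH1, and ORM1 and ORM2, for each genome and culture. LAC1 is the larger part of its bar in S. bayanus and the smaller part in S. cerevisiae, the SUR1 and CSH1 bars are taller in S. bayanus, and ORM1 takes a smaller part of the S. bayanus bars.

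Of the genes for complex sphingolipids, SUR1 and IPT1 had a higher S. bayanus allele and CSG2 was not called. SUR1 (YPL057C, chromosome XVI), the mannosyltransferase subunit, had 1297 S. bayanus reads and 594 S. cerevisiae reads in culture 1, and 824 and 463 in culture 2. Its log2 ratio was 1.12, 0.81, 1.08, 1.13 and 1.15 in the lanes of culture 1, and 0.74, 0.68 and 0.59 in those of culture 2. All 8 lanes favoured S. bayanus, and every lane of culture 1 lay above every lane of culture 2. The alleles averaged 162 ± 21.4 RPKM for S. bayanus and 91.7 ± 27.9 RPKM for S. cerevisiae (SD, n = 2), 1.81-fold at a log2 ratio of 0.86 (SE 0.12, edgeR adjusted p = 0.00389).

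CSG2 (YBR036C, chromosome II), the partner that SUR1 works with, was not called. It had 2028 S. bayanus reads and 2119 S. cerevisiae reads in culture 1, and 1599 and 1572 in culture 2. The alleles averaged 280.2 ± 78.7 RPKM for S. bayanus and 307 ± 83.1 RPKM for S. cerevisiae, a log2 ratio of -0.13 (SE 0.09, edgeR adjusted p = 0.235). Its lanes lay on both sides of equality, with the S. bayanus allele higher in 3 of 8. With both alleles scaled by 1 library size, the log2 ratio of CSG2 was -0.02 (edgeR, adjusted p = 0.852). Whether the ratios of SUR1 and CSG2 differ from each other was not tested.

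IPT1 (YDR072C, chromosome IV), which adds the last phosphoinositol group, had the smallest of the 5 differences. It had 2545 S. bayanus reads and 1651 S. cerevisiae reads in culture 1, and 1268 and 941 in culture 2. The log2 ratio was 0.56, 0.64, 0.41, 0.62 and 0.57 in the lanes of culture 1, and 0.09, 0.27 and 0.52 in those of culture 2. The alleles averaged 219 ± 8.74 RPKM for S. bayanus and 165 ± 14.4 RPKM for S. cerevisiae (SD, n = 2), 1.33-fold at a log2 ratio of 0.41 (SE 0.10, edgeR adjusted p = 0.0225). This call was lost without lane 7, at 0.37 (edgeR, adjusted p = 0.0594). It was also lost with the UCB lanes alone, at 0.35 (edgeR, adjusted p = 0.0607).

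**Figure D3:**
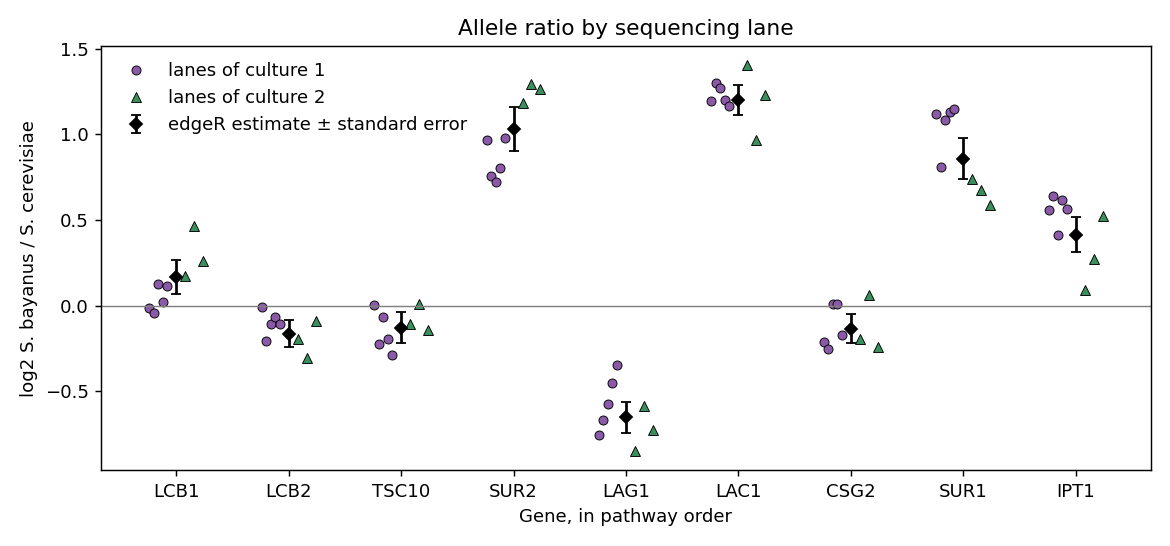
Log2 ratio of the S. bayanus over the S. cerevisiae allele for each lane, with lanes of culture 1 as circles and of culture 2 as triangles, and the edgeR estimate with its standard error as a diamond. SUR2, LAC1, SUR1 and IPT1 lie above 0 and LAG1 below 0 in all 8 lanes.

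The other 4 differences were seen at both sequencing sites. With the UCB and then the UCR lanes alone, the log2 ratio was 1.01 and 1.06 for SUR2, and 1.21 and 1.20 for LAC1. For LAG1 it was -0.70 and -0.55, for SUR1 0.84 and 0.89, and for IPT1 0.35 and 0.56. Both sites read the same libraries. The S. bayanus orthologs of the 4 genes with a higher S. bayanus allele are richer in GC, by 5.18 percentage points for SUR2, 4.95 for LAC1, 7.75 for SUR1 and 5.16 for IPT1. LCB1, which was not called, is richer by 6.53 points, LAG1 differs by -0.065, and the median over all tested genes is 1.75. With the trend of the ratio along the GC difference removed, SUR2 stood at 0.87, LAC1 at 1.05, LAG1 at -0.49 and SUR1 at 0.63, all still called. IPT1 stood at 0.25 and was no longer called (edgeR, adjusted p = 0.0902).

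Neighbouring genes, taken by ORF name along the S. cerevisiae chromosomes, were set beside the 5 genes. ORFs without a row were passed over, and for LAG1 the search crossed to YHR001W on the other chromosome arm. Of the 10 nearest ORFs with a row, 1 on either side of each gene and all of them tested, 5 differed between alleles. This was near the background of 53.5% of all tested genes, so the number does not set these neighbourhoods apart. By direction, the background was 26.6% with a higher S. bayanus allele and 26.9% with a higher S. cerevisiae allele. Of the 5 neighbours, 1 had the direction of the sphingolipid gene. That was YKL007W beside LAC1, with a log2 ratio of 0.32, while YKL009W on the other side had -0.32. YDR073W beside IPT1 had -0.69, the only one of the 10 at 1.5-fold or more. Beside the genes that were not called, YMR297W next to LCB1 had -1.23, YDR061W and YDR063W around LCB2 had -0.59 and -0.82, and YBR037C next to CSG2 had 0.94 (edgeR, adjusted p between 0.000676 and 0.00725 for these). Overlap of transcripts and strand were not examined.

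For the rest of the pathway, a list of 28 further genes, of partner subunits, regulators, breakdown enzymes and very-long-chain fatty acid synthesis, had 24 rows in the table. The table names them by ORF only, and their gene names here are the standard ones for S. cerevisiae. Alleles differed in 12 of 24, against 53.5% of all genes. Of these, 6 leaned toward S. bayanus and 6 toward S. cerevisiae, directions that 26.6% and 26.9% of all genes took, so the counts were near the background. The median log2 ratio of the 24 was 0.06 and its median size was 0.36. As a whole the list was described by these counts and medians only, and classes and single genes of it follow.

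Partner subunits of the synthesis enzymes, grouped here with the SUR1 paralog CSH1, differed in 3 of 3 genes with a row, against 53.5% of all genes. CSH1 (YBR161W), the paralog of SUR1, had 950 S. bayanus reads and 233 S. cerevisiae reads in culture 1, and 560 and 120 in culture 2. Its log2 ratio of 2.00 (SE 0.11, edgeR adjusted p = 0.000454) was the widest of all 33 sphingolipid genes. LIP1 (YMR298W), a subunit of ceramide synthase, had 373 ± 35.3 RPKM for S. bayanus and 213 ± 38.4 RPKM for S. cerevisiae, a log2 ratio of 0.80 (SE 0.16, edgeR adjusted p = 0.0106). It lies 2 ORFs from LCB1 on chromosome XIII, with YMR297W between them at -1.23. KEI1 (YDR367W), the partner of AUR1, leaned the other way, with 197 ± 28.1 RPKM for S. bayanus and 435 ± 135 RPKM for S. cerevisiae and a log2 ratio of -1.11 (SE 0.12, edgeR adjusted p = 0.00191).

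Both mannosyltransferase paralogs leaned to S. bayanus. Their summed level was 258 RPKM for S. bayanus and 101 RPKM for S. cerevisiae in culture 1, and 302 and 141 RPKM in culture 2, ratios of 2.56 and 2.14 with no test. CSH1 made up 43.0% of the S. bayanus sum in culture 1 and 41.1% in culture 2, and 28.7% and 21.0% of the S. cerevisiae sum. How reads shared by SUR1 and CSH1 were assigned is not given in the sources used here.

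Regulators differed in 3 of 8 genes, against 53.5% of all genes. Both ORM genes, whose products inhibit serine palmitoyltransferase, were among them, in opposite directions. ORM1 (YGR038W) had 313 S. bayanus reads and 752 S. cerevisiae reads in culture 1, and 237 and 527 in culture 2, a log2 ratio of -1.31 (SE 0.10, edgeR adjusted p = 0.000943). ORM2 (YLR350W) had 1678 S. bayanus reads and 972 S. cerevisiae reads in culture 1, and 1672 and 621 in culture 2, with a log2 ratio of 0.98 (SE 0.15, edgeR adjusted p = 0.00531). By culture, the ratio of ORM2 was 0.70 in culture 1 and 1.27 in culture 2. ORM2 was the larger part of the pair in both genomes, at 84.9% of the S. bayanus sum and 57.9% of the S. cerevisiae sum in culture 1, and 88.1% and 55.6% in culture 2. YPK2, a protein kinase whose paralog YPK1 acts on the ORM proteins, had a log2 ratio of -0.90 (SE 0.14, edgeR adjusted p = 0.00545). YPK1 itself stood at 0.0025 (SE 0.10, edgeR adjusted p = 0.984).

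Breakdown genes differed in 4 of 8, against 53.5% of all genes. LCB4 (YOR171C), the main kinase of long-chain bases, had 411 S. bayanus reads and 1292 S. cerevisiae reads in culture 1, and 168 and 450 in culture 2, a log2 ratio of -1.59 (SE 0.11, edgeR adjusted p = 0.000751). Its paralog LCB5 had -0.41 (edgeR, adjusted p = 0.0214). YDC1, a ceramidase that acts on dihydroceramide, had -0.60 (edgeR, adjusted p = 0.00868), and HFD1, a fatty aldehyde dehydrogenase, had 0.30 (edgeR, adjusted p = 0.0491). SCS7, which hydroxylates the fatty acid of ceramide, had 0.55 (edgeR, adjusted p = 0.0101). Of the 4 genes for very-long-chain fatty acids, ELO2 had 0.35 (edgeR, adjusted p = 0.0378) and the others were not called. The call of HFD1 was lost by DESeq2, with the UCB lanes alone, with the GC correction, at 0.19 (edgeR, adjusted p = 0.127), and without lane 1, 3, 6, 7 or 8. That of ELO2 was lost by DESeq2 and without lane 1, 2 or 3, and that of LCB5 by DESeq2 and with 1 library size for both alleles. LCB5, HFD1, SCS7 and ELO2 were named after their values were seen.

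**Figure D4:**
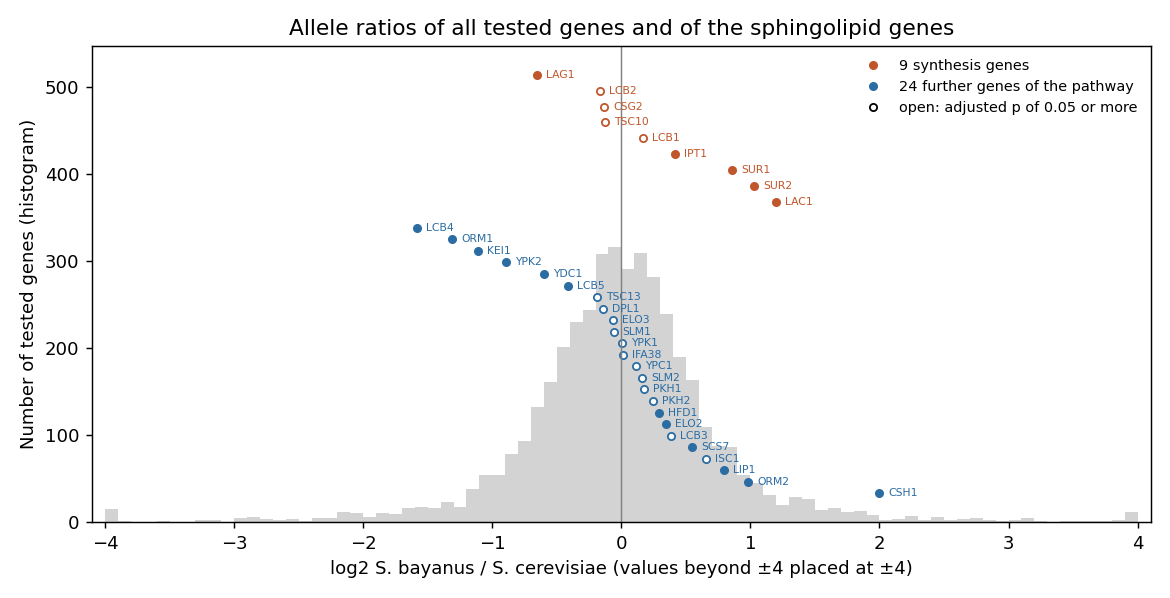
Histogram of the log2 ratio of the S. bayanus over the S. cerevisiae allele for the 4197 tested genes, with the 9 synthesis genes and the 24 further genes of the pathway drawn over it as points, placed by ratio, their height being for legibility only and ratios beyond the axis gathered at its ends. Filled points passed the test; LAC1 and CSH1 stand farthest to the right in their lists, and LAG1 and LCB4 farthest to the left.

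The level of the synthesis genes was also set side by side in the cultures. All 9 had a lower level, as the mean of both alleles, in culture 1 than in culture 2, while 49.1% of all tested genes did. With read totals in place of TMM factors it was 8 of 9, against 36.2% of all tested genes. The median log2 difference, culture 1 minus culture 2, was -0.42 over the 9 genes and 0.0057 over all tested genes. In 8 of the 9, every lane of culture 1 lay below every lane of culture 2, against 25.4% of all tested genes. The opposite order, which 23.3% of all tested genes had, was seen in 0 of the 9. Each of the 9 had at least 3178 reads, above the median of 2673 over all tested genes. These shares were not matched for read depth. LCB1 had the widest difference, with lanes of 439 to 522 RPKM in culture 1 and of 681 to 851 RPKM in culture 2. CSG2 had lanes of 224 to 258 RPKM in culture 1 and of 337 to 390 RPKM in culture 2. SUR1 had 105 to 119 RPKM in culture 1 and 143 to 148 RPKM in culture 2, and only the lanes of IPT1 overlapped, at 186 to 200 RPKM and 187 to 208 RPKM. With a single library from each, culture and library cannot be told apart, and the level was not tested across cultures.

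**Figure D5:**
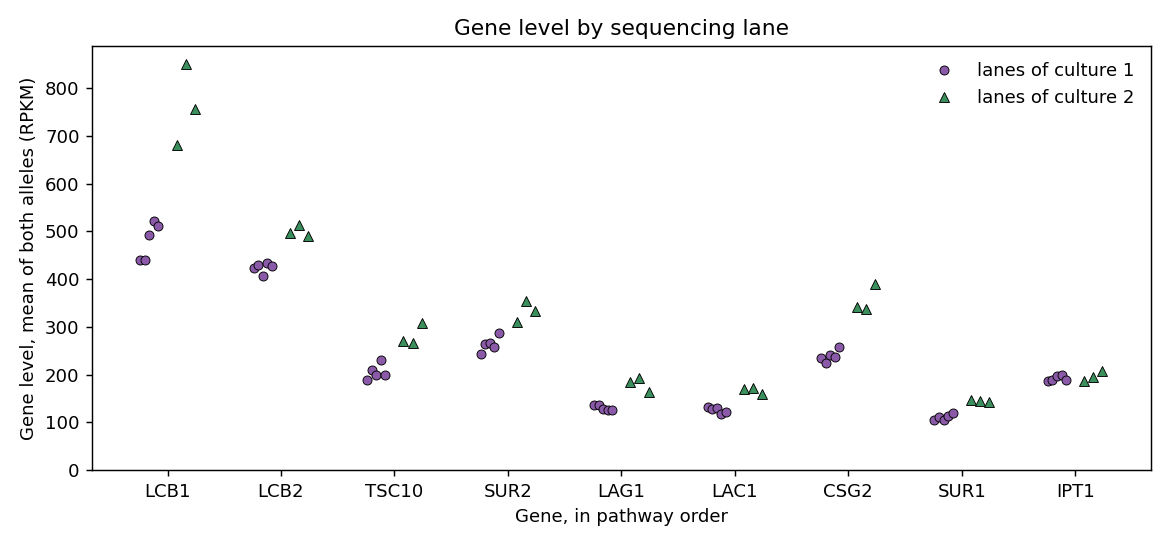
Level of each gene as the mean of both alleles in RPKM, by lane, with lanes of culture 1 as circles and of culture 2 as triangles. The triangles lie above the circles for all genes but IPT1, where they overlap.

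In 4 of the 9 genes the allele ratio of the 2 libraries, 1 from each culture, differed beyond the spread of their lanes (edgeR, allele by culture interaction over lanes), against 17.9% of all tested genes. The S. bayanus share was higher in culture 1 for 2 of them, against 9.2% of all genes, and in culture 2 for 2, against 8.72%. These p-values measure the spread between runs of a library and not between cultures, so they compare the libraries and do not test an effect of culture. SUR2 had a log2 ratio of 0.82 in culture 1 and 1.25 in culture 2, a fitted difference of -0.40 (SE 0.09, edgeR adjusted p = 0.00136). LCB1 had 0.02 in culture 1 and 0.31 in culture 2, a difference of -0.26 (SE 0.06, edgeR adjusted p = 0.00307). Its lanes were -0.02, -0.05, 0.13, 0.02 and 0.12 in culture 1, and 0.17, 0.47 and 0.26 in culture 2, with no overlap. The call of LCB1 was lost with the GC correction, at -0.09 (edgeR, adjusted p = 0.235), and by DESeq2 (adjusted p = 0.0758).

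SUR1 and IPT1 differed the other way. The log2 ratio of SUR1 was 1.03 in culture 1 and 0.67 in culture 2, a difference of 0.38 (SE 0.11, edgeR adjusted p = 0.017), and that of IPT1 was 0.54 and 0.28, a difference of 0.27 (SE 0.09, edgeR adjusted p = 0.034). Both calls depended on single lanes. The call of SUR1 was lost without lane 3, 4, 6, 7 or 8 in turn, at adjusted p-values up to 0.112, and that of IPT1 without lane 1, 2, 3, 4, 6 or 8, up to 0.471 (edgeR). The call of SUR1 was also lost with the UCB lanes alone, at 0.28 (edgeR, adjusted p = 0.241). By DESeq2 both calls were lost, at adjusted p = 0.177 for SUR1 and 0.263 for IPT1. Both were lost with 1 library size for both alleles as well. Without lane 3 the difference of IPT1 was 0.13, and with the GC correction that of SUR1 was 0.66 (edgeR, adjusted p = 6.49e-06). The ratio of LAC1 was 1.21 in culture 1 and 1.19 in culture 2, a difference of 0.03 (SE 0.11, edgeR adjusted p = 0.895), and that of LAG1 differed by 0.15 (SE 0.11, edgeR adjusted p = 0.375).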

How the data were processed

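RNA of 2 cultures of the hybrid was measured by sequencing; the 8 samples are lanes. Raw read counts for each ortholog in each lane were deposited by the authors. The submitters' processing notes name Bowtie, without a version; genome builds and the handling of ambiguous reads are not stated there. Besides counts, the deposited file has natural log ratios, p-values of a resampling procedure for each culture and a score of -1, 0 or 1 that combines them; from these the authors' calls were read. The GC difference is deposited as a fraction and given here in percentage points. Another 4 columns, sums per culture and allele, were not used.

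Counts were summed by culture and allele and tested with edgeR 4.0.16 in R 4.3.3 (quasi-likelihood, culture as block, TMM scaling of each allele column, log mappable length as offset), called at an adjusted p under 0.05. The block rests on both alleles being read in 1 library. The difference between cultures was an allele by culture term on 16 columns. DESeq2 1.42.0 was an alternative, and the scripts were tested on simulated data. Tables were made in Python 3.11.15 with pandas 2.3.3. The cultures are biological replicates per the labels.

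The members and lists were chosen with earlier results of these data known. All members were named, as were genes of the wider list called at 1.5-fold or more, and nearest ORFs called at 1.5-fold or more. Symbols are not in the table, and no sequence was used.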

Additional observations from a re-analysis of the deposited data

Results flagged for a closer look

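The allele ratio differed between the library of culture 1 and that of culture 2, beyond the spread of their lanes (edgeR interaction test), in 4 of the 9 synthesis genes, against 17.9% of all tested genes. The number fell to 2 without lane 3, 4, 6 or 8 and to 1 by DESeq2. The median size of the log2 difference was 0.154 over the 9 genes and 0.171 over all tested genes. The 9 genes were read more deeply, with a median of 6186 reads against 2673, and the share of all genes was not matched for this. The log2 differences, culture 1 minus culture 2, were -0.26 for LCB1, -0.40 for SUR2, 0.38 for SUR1 and 0.27 for IPT1. Lane 2 of culture 1 stood apart for SUR1, with a log2 ratio of 0.81 where the other 4 lanes of that culture had 1.08 to 1.15. The lanes of culture 1 were examined this way for 9 genes, and chance marks about 1 in 20.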

How the results depend on the processing

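The number of synthesis genes with an allele difference, 5, was the same or within 1.5 times in 17 of 19 alternatives. Without the replicate block it was 2 (SUR2 and LAC1), and with lanes as units, which counts runs as replicates, 9. For the wider list the number was 12, and 6 and 19 under the same settings. Without each lane in turn these numbers were 4 to 5 and 10 to 13. Of the synthesis genes and the wider genes called at 1.5-fold or more, LAG1, SUR1, IPT1, ORM2 and YDC1 lost their call without the block; SUR2 and LAC1 kept theirs in every alternative with a test. The ratio of LCB1 was -0.033 after GC correction. Over all genes, 2247 were called, 866 without the block and 1480 by DESeq2. With 1 library size for both alleles, the split of calls was 1320 for S. bayanus and 813 for S. cerevisiae, against 1118 and 1129, and the median log2 ratio of all genes moved by 0.11.

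The number of synthesis genes whose ratio differed between cultures, 4, was 2 with 1 library size for both alleles, 1 by DESeq2 (SUR2), and 2 to 4 without each lane; the cause was not tested. SUR2 was called in all 16 alternatives, while SUR1 was not called in 8 of them and IPT1 in 10. The number was 2 without lane 3, 4, 6 or 8. Of the 5 differences that were not called, those of TSC10 and LAG1 kept their sign in all 16 alternatives and the other 3 did not. That of LAC1 was -0.051 with 1 library size and -0.0070 with no filter, and -0.15 to 0.11 without each lane. That of LCB2 was -0.0023 to 0.12 and that of CSG2 -0.091 to 0.043 without each lane. Over all genes 752 differed, 386 with a higher S. bayanus share in culture 1 and 366 in culture 2. With 1 library size these were 166 and 518. DESeq2 called 282 and the UCB lanes 408. The higher level in culture 2 held for 8 to 9 of the 9 genes under alternatives chosen after seeing the data; without lane 7 it held for 8, and with read totals for 8, where the median of all genes moved to 0.12.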

Other observations

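Between the 2 libraries, 1 from each culture, the allele ratio differed beyond the spread of lanes for 7 of 24 genes of the wider list (edgeR interaction test), against 17.9% of all tested genes. A higher S. bayanus share in culture 2 was seen in 6 of them and in culture 1 in 1, directions that 8.72% and 9.2% of all genes took. The median size of the log2 difference was 0.167 over the 24 genes and 0.171 over all tested genes. By DESeq2 the calls of LIP1, KEI1, SCS7 and ELO2 were lost, and with the GC correction those of LCB3 and SCS7. ORM2 and ISC1 kept their calls under both. The log2 ratio of ORM2 was 0.70 in culture 1 and 1.27 in culture 2 (difference -0.56, SE 0.09, edgeR adjusted p = 5.49e-05). ISC1 (YER019W), which releases ceramide from complex sphingolipids, was singled out after its values were seen. Its S. bayanus allele had 122 RPKM in culture 1 and 513 RPKM in culture 2, and its S. cerevisiae allele 126 and 201 RPKM. The lanes of culture 2 were unlike, at 377, 679 and 496 RPKM for its S. bayanus allele (lanes 3, 4 and 7). Those of culture 1 had 93.8 to 153 RPKM. Its log2 ratio was -0.05 in culture 1 and 1.35 in culture 2 (difference -1.36, SE 0.13, edgeR adjusted p = 1.73e-09), where p measures the spread between lanes only. The S. bayanus ortholog is richer in GC by 12.4 percentage points. With the GC correction the difference was -0.64 (edgeR, adjusted p = 7.07e-09), and over all 16 alternatives it ran from -1.55 to -0.64.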
